A study of Mus musculus with 12 samples.

Results

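The interferon-induced proteins with tetratricopeptide repeats (IFIT) family was examined in cultured stroma of the mouse small intestine. Members were taken by symbol, as Ifit1, Ifit2, Ifit3 and I830012O16Rik, the older name of Ifit3b, which is the name used from here on. All 4 were found among the 23329 genes listed in each count table, and all 4 were among the 13038 genes that passed the expression filter. Primary stromal cells from C57BL6/J mice were grown from E14.5 embryos or from adults, whose age was not given in the sources used here, and were sequenced after treatment with lipopolysaccharide (LPS) of E. coli or with the vehicle, PBS. Each of the 4 groups held 3 libraries, 12 in all, and LPS was used for 6 h at the 10 µg/µl stated in the study's methods. By those methods the cells came from 3 independent cultures per stage, an embryonic culture pooling 6 embryos and the adult ones coming from 3 mice, and they were early-passage cultures of mixed stroma without a sort for a cell type. The p-values measure the spread between libraries of a group, which came from different cultures, and do not use the pairing of libraries. In the fit of all libraries this spread was pooled over the 4 groups. Where the replicate number within a stage was fitted as a block, they measure the spread of the LPS response between same-numbered pairs.

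IFIT proteins are antiviral effectors that are scarce in resting cells and accumulate after type I interferon or after direct activation of interferon regulatory factors. IFIT1 binds RNA whose cap lacks ribose methylation and keeps it from being translated. In human cells IFIT2 and IFIT3 form complexes with IFIT1 and with each other. Several members bind the translation initiation factor eIF3. LPS reaches this programme through the receptor TLR4 and the adaptor TRIF, which lead to interferon beta, and the interferon receptor then signals through factors that include STAT2 and IRF9 to interferon-stimulated response elements in promoters.

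The 4 genes lie on the plus strand of chromosome 19 within 99.46 kb (GRCm38.p6, chr19:34550550-34650009), in the order Ifit2, Ifit3, Ifit3b, Ifit1. By the RefSeq annotation Ifit2 spans chr19:34550550-34576534, Ifit3 chr19:34583119-34588982, Ifit3b chr19:34607530-34613403 and Ifit1 chr19:34640889-34650009. The longest GENCODE vM21 transcript has 3 exons in Ifit2 and 2 exons in each of the other members. The promoters are shown because the members moved together with LPS. Each window is from RefSeq on GRCm38.p6, runs from 250 bases before to 50 bases after an annotated transcript start, and is written 5′ to 3′ on the plus strand. Capitals mark matches to GAAANNGAAA, a core of the interferon-stimulated response element, or to its reverse complement TTTCNNTTTC.
Ifit1 (chr19:34640639-34640938): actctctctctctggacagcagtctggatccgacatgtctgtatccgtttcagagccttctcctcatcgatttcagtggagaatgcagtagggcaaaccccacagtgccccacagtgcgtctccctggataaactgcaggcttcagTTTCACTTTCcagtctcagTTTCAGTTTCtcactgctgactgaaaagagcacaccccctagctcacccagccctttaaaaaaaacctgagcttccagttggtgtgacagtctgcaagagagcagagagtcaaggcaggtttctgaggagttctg
Ifit3 (chr19:34583279-34583578): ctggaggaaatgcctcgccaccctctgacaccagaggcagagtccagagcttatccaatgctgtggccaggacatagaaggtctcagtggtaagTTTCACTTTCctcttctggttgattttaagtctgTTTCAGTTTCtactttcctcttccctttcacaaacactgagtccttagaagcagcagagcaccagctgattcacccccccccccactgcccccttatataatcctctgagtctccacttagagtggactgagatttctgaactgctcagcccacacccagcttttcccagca
Ifit3b (chr19:34607707-34608006): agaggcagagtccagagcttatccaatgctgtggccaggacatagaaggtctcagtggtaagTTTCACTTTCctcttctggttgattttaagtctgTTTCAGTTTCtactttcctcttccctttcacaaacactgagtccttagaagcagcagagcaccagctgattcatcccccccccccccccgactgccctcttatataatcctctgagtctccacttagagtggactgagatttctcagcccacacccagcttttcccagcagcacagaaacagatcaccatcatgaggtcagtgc
Ifit2 (chr19:34550444-34550743): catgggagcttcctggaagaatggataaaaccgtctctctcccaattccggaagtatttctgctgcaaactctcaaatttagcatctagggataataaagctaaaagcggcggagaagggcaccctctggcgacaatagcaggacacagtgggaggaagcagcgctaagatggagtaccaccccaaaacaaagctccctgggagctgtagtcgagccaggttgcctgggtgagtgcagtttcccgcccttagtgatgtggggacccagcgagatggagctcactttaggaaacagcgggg

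The windows of Ifit1, Ifit3 and Ifit3b each held 2 matches, all in the reverse orientation. Counted from the transcript start of each window, they began 104 and 85 bases before it in Ifit1. In Ifit3 the distances were 156 and 122 bases, and in Ifit3b 188 and 154 bases. The transcript starts used for Ifit3 and Ifit3b lie inside the gene spans given above, and that of Ifit1 is at the start of its span. The window of Ifit2 held none, nor did a second Ifit2 window at chr19:34550838-34551137, which says only that these letters are not in these windows. Of all 32851 promoter windows searched in the same way, 3.44% held at least 1 match and 0.225% held at least 2. A match describes the sequence and was not tested as a binding site.

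Ifit3 and Ifit3b are near-identical copies, which bears on how far their counts can be told apart. Their coding sequences, each of 1209 bases, matched at 99.1% of positions, with 11 mismatches and no gap, whereas every other pair of members matched at 56.3% to 61.0% of aligned positions. A read of 75 bases, the length sequenced here, could be assigned uniquely only where the copies differ. Of all 75-base windows along the transcript, 41.1% in Ifit3 and 35.7% in Ifit3b also occurred unchanged in the other copy. The share was 5.19% in Ifit1, all with the neighbour Ifit1bl2, and 0 in Ifit2. One window from exon 2 shows how the copies are distinguished, with the 4 differing bases in capitals (GRCm38.p6, plus strand).
Ifit3 (chr19:34587269-34587343): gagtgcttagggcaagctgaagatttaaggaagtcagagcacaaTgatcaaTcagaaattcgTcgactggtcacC
Ifit3b (chr19:34611639-34611713): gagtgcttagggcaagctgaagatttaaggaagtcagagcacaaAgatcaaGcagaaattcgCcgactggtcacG
Such a window is uncommon. Of the aligned 75-base windows of both coding sequences, 56.8% were identical, 34.8% differed at 1 base and 3.96% at 4 or more. Along the transcript, 68.3% of windows in Ifit3 and 59.3% in Ifit3b were within 1 mismatch of another gene of the locus. Only uniquely mapped reads were counted, so the levels of Ifit3 and Ifit3b are uncertain. The split between them rests on windows that differ, in the coding sequence mostly at 1 base.

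The libraries held 18850224 to 32672370 counts in genes. Levels are given as CPM, the counts per 1000000 gene counts after TMM scaling, and 3 counts in a library corresponded to 0.0897 to 0.145 CPM. Stromal genes were abundant in every library, with Col1a1, a fibrillar collagen, at 3543 to 12784 CPM and Pdgfrb, a mesenchymal receptor, at 134 to 372 CPM. Macrophage markers were also present. All 16 listed markers were above the 3-count level in some library of each group, though not necessarily in all of its libraries. Their summed level was 285 to 3330 CPM in embryonic PBS and 230 to 2520 CPM in embryonic LPS. It was 24.1 to 212 CPM in adult PBS and 19.6 to 229 CPM in adult LPS. From the RNA of such bulk cultures fewer cells of a type and less RNA per cell cannot be told apart. By flow cytometry the study reported a higher percentage of cells positive for CD45 and CD11b in embryonic than in adult stromal cultures.

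The first comparison asked how embryonic stroma responded to LPS. All 4 members rose. Mean levels with PBS and with LPS were 1.18 ± 1.03 and 722 ± 654 CPM for Ifit1, 18.7 ± 1.40 and 897 ± 778 CPM for Ifit2, 2.05 ± 1.63 and 505 ± 499 CPM for Ifit3, and 0.390 ± 0.414 and 193 ± 196 CPM for Ifit3b (SD, n = 3). For Ifit1, the sensor of incompletely methylated caps, the embryonic PBS libraries held 0.512, 0.671 and 2.36 CPM and the embryonic LPS libraries 299, 393 and 1476 CPM. The lowest LPS library was far above the highest PBS library, and culture 3 was the highest under either treatment. The log2 fold change was 9.25 ± 0.90 (SE, n = 3 per group, edgeR quasi-likelihood test, adjusted p = 0.00151).

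Ifit2, which binds AU-rich RNA, stood at 17.3, 18.7 and 20.1 CPM in embryonic PBS and at 313, 598 and 1780 CPM in embryonic LPS. The PBS libraries were close together, the groups did not overlap, and culture 3 again was highest. The log2 fold change was 5.59 ± 0.61 (SE, edgeR, adjusted p = 0.00188), the smallest of the 4.

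Ifit3, which stabilises the binding of capped RNA by IFIT1 in human cells, was at 0.904, 1.34 and 3.92 CPM in embryonic PBS and at 262, 175 and 1079 CPM in embryonic LPS. The groups did not overlap, and the log2 fold change was 7.94 ± 0.96 (SE, edgeR, adjusted p = 0.00271). Its copy Ifit3b was at 0.181, 0.122 and 0.867 CPM in embryonic PBS, which is 6, 4 and 29 counts, and at 110, 52.8 and 416 CPM in embryonic LPS. The groups did not overlap, and the log2 fold change was 8.93 ± 1.08 (SE, edgeR, adjusted p = 0.00271).

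All 4 members thus passed the rule of an adjusted p under 0.05 and a log2 fold change of at least 2 in either direction, which 1.93% of all tested genes met. All 4 also had every embryonic LPS library above every embryonic PBS library, as did 7.58% of tested genes. By mean level among the 13038 tested genes Ifit2 moved from rank 7031 to rank 136, Ifit1 from 12068 to 175, Ifit3 from 11458 to 287 and Ifit3b from 12809 to 1008. Fitted on the embryonic libraries alone without pairing them, no member passed (edgeR, adjusted p from 0.0882 to 0.106), and 4 genes were called in all. Together the members took 0.0962% to 0.427% of all gene counts in embryonic LPS.

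**Figure D1:**
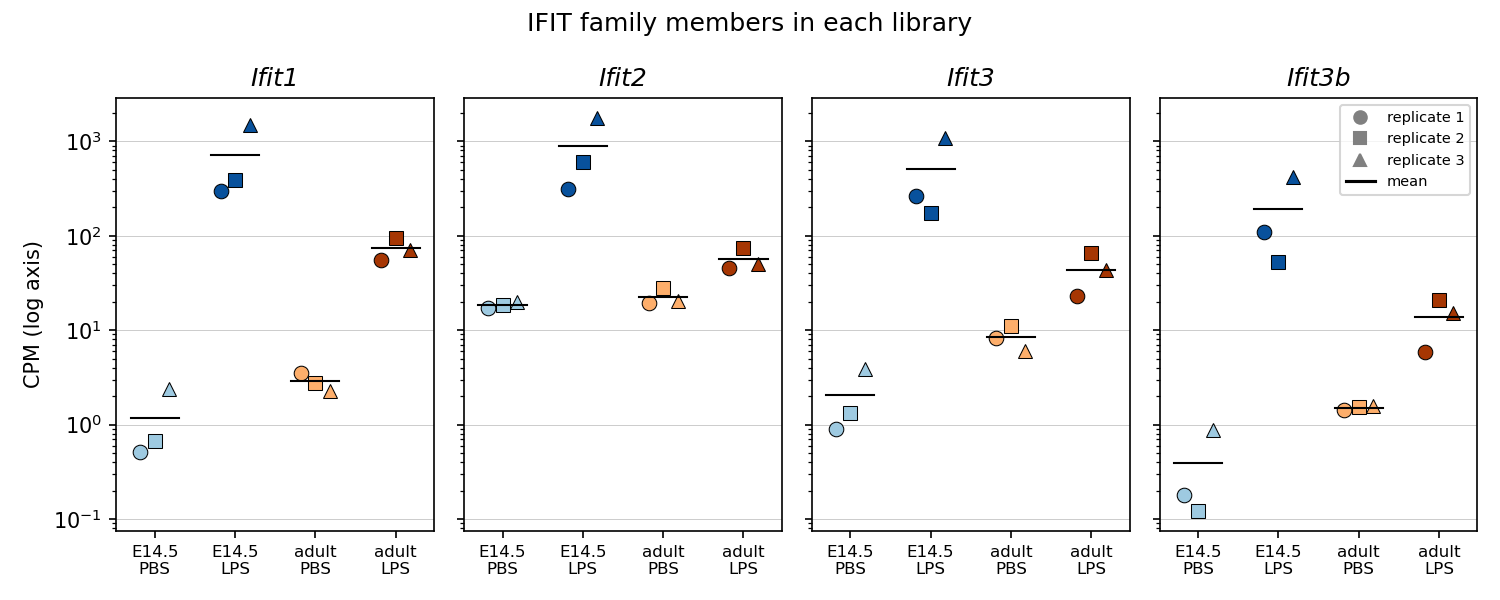
CPM of each IFIT member in every library, on a log axis shared by the 4 panels. Symbols mark the replicate number and black lines the group mean. In every panel the embryonic LPS libraries sit above those of all other groups, and the embryonic PBS libraries of Ifit3 and Ifit3b sit below the adult PBS ones.

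The second comparison asked the same of adult stroma. Only Ifit1 passed the rule there, although every member was higher with LPS in each same-numbered pair, as were 24% of tested genes. Mean levels with PBS and with LPS were 2.86 ± 0.643 and 73.6 ± 19.8 CPM for Ifit1, 22.4 ± 4.62 and 56.8 ± 15.7 CPM for Ifit2, 8.46 ± 2.49 and 43.7 ± 21.0 CPM for Ifit3, and 1.51 ± 0.0740 and 13.9 ± 7.47 CPM for Ifit3b (SD, n = 3). Ifit1 was at 3.55, 2.75 and 2.28 CPM in adult PBS and at 55.5, 94.8 and 70.5 CPM in adult LPS. The groups did not overlap, and the log2 fold change was 4.68 ± 0.74 (SE, edgeR, adjusted p = 0.0216).

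Ifit2 was at 19.2, 27.7 and 20.2 CPM in adult PBS and at 45.2, 74.6 and 50.4 CPM in adult LPS. The groups did not overlap, but the log2 fold change of 1.34 ± 0.51 (SE) did not pass in edgeR (adjusted p = 0.617). Ifit3 was at 8.28, 11.0 and 6.07 CPM in adult PBS and at 22.9, 64.9 and 43.3 CPM in adult LPS, with a log2 fold change of 2.37 ± 0.75 (SE, edgeR, adjusted p = 0.376). Ifit3b had the tightest resting values of any member, 1.43, 1.54 and 1.57 CPM, and reached 5.86, 20.6 and 15.2 CPM with LPS.
Its log2 fold change of 3.20 ± 0.84 (SE) did not pass either (edgeR, adjusted p = 0.191).

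In adult stroma 1 of 4 members was therefore called, against 0.422% of tested genes, and all 4 had non-overlapping groups, as did 9.1% of tested genes. The call on Ifit1 was lost when any 1 adult PBS library or adult LPS library 1 or 3 was left out, with adjusted p from 0.0572 to 0.169 in edgeR.

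Same-numbered LPS and PBS libraries of a stage deviated together, so each comparison was also fitted with the replicate number as a block. With the block 3 of 4 members were called in adult stroma, against 1.62% of tested genes, and 4 of 4 in embryonic stroma, against 3.41%. The adult log2 fold changes were 4.64 ± 0.20 for Ifit1 (SE, edgeR, adjusted p = 1.58e-05), 2.29 for Ifit3 (adjusted p = 0.00249) and 3.06 for Ifit3b (adjusted p = 0.000408). Ifit2 remained outside, at 1.33 ± 0.35 (SE, edgeR, adjusted p = 0.0754). These 3 calls were also made when any one of the 6 cultures was left out, and by DESeq2 without the block.

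Within the pairs the LPS to PBS ratio of Ifit1 was 583, 585 and 625 in the embryonic cultures, a narrow range although the levels themselves differed by 4.94 times between the LPS libraries. In the adult cultures it was 15.6, 34.5 and 30.9. Ifit2 went the other way, with embryonic ratios spread from 18.1 and 32.1 to 88.7 and adult ratios held between 2.35 and 2.69. The ratios of Ifit3 were 290, 130 and 275 in embryonic and 2.77, 5.88 and 7.14 in adult pairs. For Ifit3b they were 606, 433 and 480 in embryonic and 4.10, 13.4 and 9.70 in adult pairs. In all 6 pairs the log2 ratios, computed with a prior count of 2, ran in the same order, Ifit1 above Ifit3b above Ifit3 above Ifit2, and spanned 2.71 to 4.83 log2 units. The order of Ifit1 and Ifit3b depended on the prior count in embryonic pair 1, where the plain ratio of Ifit3b was the higher. Neighbours in this order were not tested against each other.

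**Figure D2:**
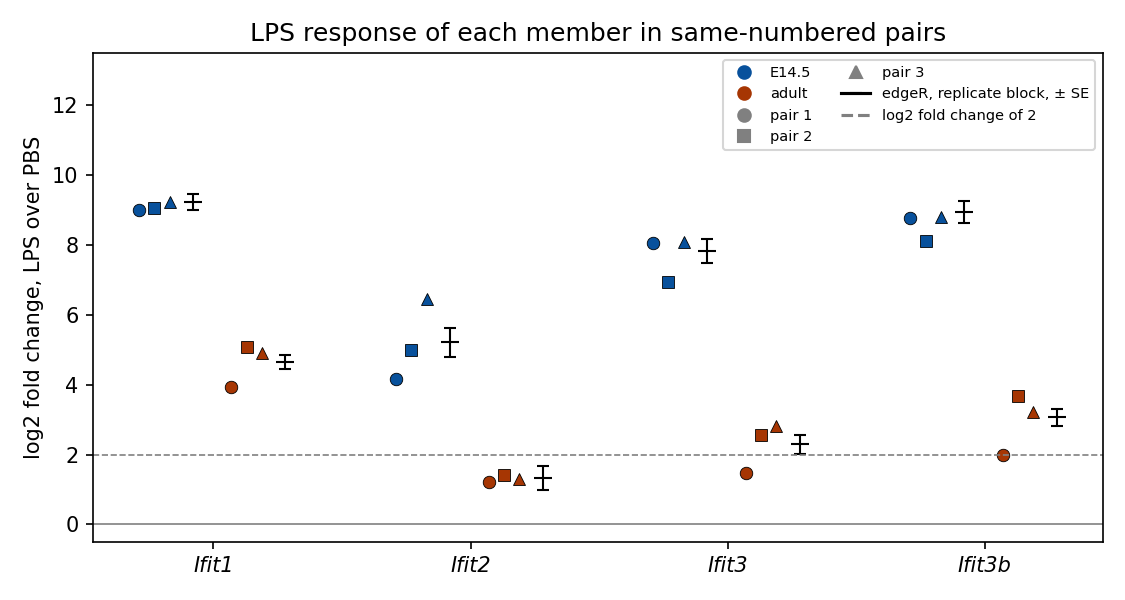
Log2 fold change of LPS over PBS for each member in the 3 same-numbered pairs of each stage (symbols), with the edgeR estimate from the fit with the replicate block and its SE (black). Every embryonic pair lies above every adult pair of the same member, and Ifit2 has the smallest values in both stages.

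The third comparison asked whether the response differed between stages. The embryonic log2 fold change exceeded the adult one by 4.57 for Ifit1, 4.24 for Ifit2, 5.57 for Ifit3 and 5.73 for Ifit3b. In the fit without the block no member passed (edgeR, adjusted p = 0.968 for each), and neither did any of the 13038 genes, which makes the background 0%. Before adjustment the same fit put all 4 members under 0.05, as it did 2.25% of all genes, and Ifit2 ranked first of all tested genes, Ifit3 at 3, Ifit1 at 7 and Ifit3b at 11. With DESeq2 4 members passed.

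With the replicate block all 4 differences passed, against 0.844% of tested genes. They were 4.59 ± 0.31 for Ifit1 (SE, edgeR, adjusted p = 0.000897), 3.89 ± 0.51 for Ifit2 (adjusted p = 0.0155), 5.53 for Ifit3 and 5.88 for Ifit3b (adjusted p = 0.00119 for both). All 4 members had each embryonic pair above each adult pair, as did 9.66% of tested genes. Ifit2 no longer passed when any 1 adult culture was left out (edgeR, adjusted p from 0.0738 to 0.104), whereas the other members passed without any single culture.

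Embryonic culture 3 had the highest summed IFIT level and the most macrophage RNA. The summed level in embryonic LPS was 983, 1219 and 4752 CPM, beside macrophage sums of 230, 1207 and 2520 CPM in the same libraries. In adult LPS the order was opposite, with summed IFIT levels of 129, 255 and 180 CPM beside macrophage sums of 229, 19.6 and 55.4 CPM. Markers of other cell types also differed between these adult libraries. Endothelial sums were 14.2, 1685 and 339 CPM, in the same order as IFIT. Mesothelial sums were 966, 207 and 412 CPM, in the opposite order. In embryonic LPS the endothelial sums were 35.4, 33.0 and 34.5 CPM and the mesothelial ones 110, 354 and 121 CPM. Embryonic LPS library 1 and adult LPS library 1 had nearly equal macrophage sums, 230 and 229 CPM, and differed in summed IFIT level by 983 against 129 CPM. The equal sums hid differences in single markers. Ptprc was at 19.6 to 162 CPM in embryonic LPS and 0.554 to 6.45 CPM in adult LPS. Itgam was at 6.27 to 56.1 and 0.154 to 3.35 CPM, and Adgre1 at 18.7 to 224 and 0.892 to 9.64 CPM. Csf1r overlapped, at 13.1 to 124 and 2.86 to 18.2 CPM. Without embryonic culture 3 all 4 members still passed the comparison of stages with the block, with differences of 4.51 for Ifit1, 3.24 for Ifit2, 5.26 for Ifit3 and 5.94 for Ifit3b (edgeR, adjusted p from 0.000694 to 0.00375). The part of macrophages, or of any other cell type, in the levels was not tested.

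**Figure D3:**
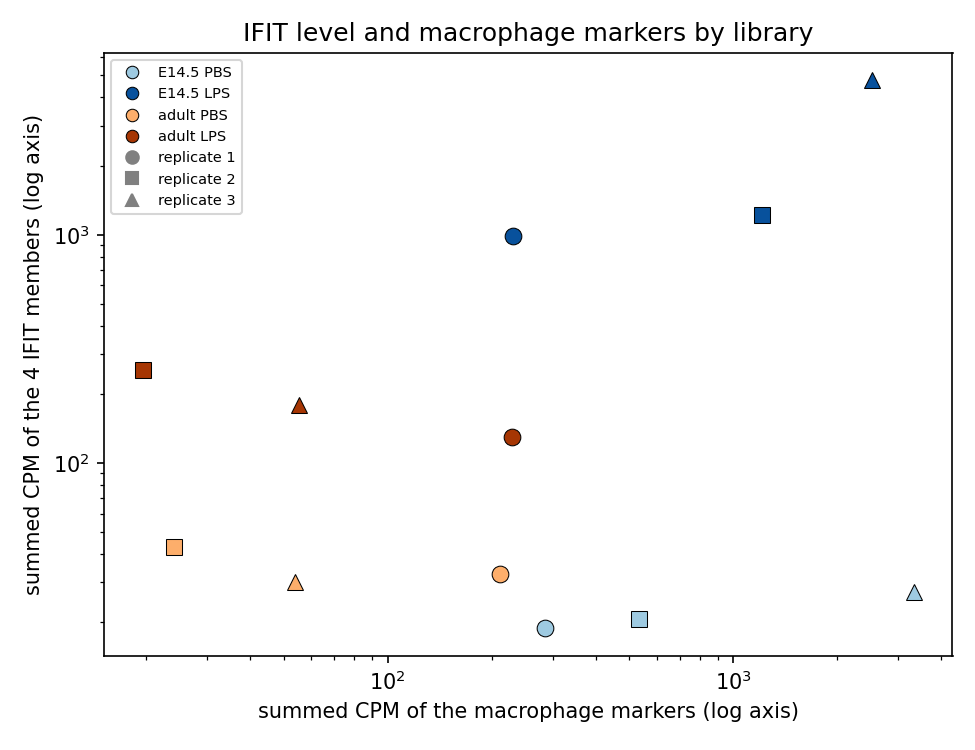
Summed CPM of the 4 IFIT members against the summed CPM of 16 macrophage markers in each library, both on log axes. Among the LPS libraries the embryonic ones rise from left to right, from 983 to 4752 CPM, and the adult ones fall from 255 to 129 CPM.

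The last comparisons set the stages side by side under one treatment. With LPS all 4 members were higher in embryonic than in adult stroma, by 3.29 ± 0.68 for Ifit1, 3.98 ± 0.56 for Ifit2, 3.53 for Ifit3 and 3.79 for Ifit3b on the log2 scale (SE, edgeR, adjusted p = 0.0255, 0.00657, 0.0309 and 0.0294). The rule here was an adjusted p under 0.05 without a fold threshold, which 5.31% of tested genes met. All 4 had every embryonic LPS library above every adult LPS library, as did 13.4% of genes. Ifit2 was the steadiest of these calls, for the others were lost when any 1 adult LPS library was left out, and Ifit3 and Ifit3b also without embryonic LPS library 3 or adult PBS library 3.

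With PBS the mean level of each member was lower in embryonic than in adult stroma, but no difference passed. The log2 ratios of embryonic to adult were -1.27 for Ifit1, -0.26 for Ifit2, -2.04 for Ifit3 and -1.94 for Ifit3b, with adjusted p from 0.170 to 0.850 in edgeR. The count of 0 of 4 stands against 4.08% of tested genes, and at an unadjusted p under 0.05 it was 1 of 4, against 19.8%. For Ifit3 and Ifit3b, 2 of 4 members, every embryonic PBS library was below every adult PBS library, as for 11.9% of genes. Ifit1 and Ifit2 overlapped between stages. With DESeq2 Ifit3 passed.

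Per kilobase of transcript, the make-up of the family changed with LPS in both stages. Ifit2 was the main member at rest in embryonic stroma, with 75.5% ± 13.9 (SD, n = 3) of the summed CPM per kb in PBS and 27.4% ± 8.12 with LPS. In adult stroma its share was 46.9% ± 4.16 with PBS and 20.5% ± 3.25 with LPS. Ifit1 held 5.98% ± 3.57 and 8.76% ± 2.33 of the summed CPM per kb in embryonic and adult PBS, and 30.8% ± 3.15 and 38.1% ± 4.20 with LPS. For both genes the shares with LPS and with PBS did not overlap in either stage.

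Ifit3 held 9.73% to 25.4% of the summed CPM per kb in embryonic PBS and 23.2% to 37.6% in embryonic LPS, and its shares overlapped in adult stroma, at 38.2% ± 4.21 with PBS and 32.5% ± 4.92 with LPS (SD, n = 3). Ifit3b had the smallest mean share in every group on full transcript length, although on unique length Ifit1 was the smaller in adult PBS (7.04% against 7.42%). Its highest share in a library was 13.7% on full length and 15.8% on unique length. In embryonic LPS the mean levels per kb were 290 for Ifit3, 272 for Ifit1, 235 for Ifit2 and 96.4 for Ifit3b. On full transcript length the first 3 changed places between cultures, and the differences between them were not tested. Counting only the windows unique to each gene as length raised the share of Ifit3 in embryonic LPS to 41.3% and lowered that of Ifit1 to 25.2%. The order of the means in embryonic LPS was the same on either length. In adult stroma it changed, with Ifit3 above Ifit2 in PBS on unique length (50.1% against 35.4%) and above Ifit1 in LPS (42.8% against 30.9%).

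**Figure D4:**
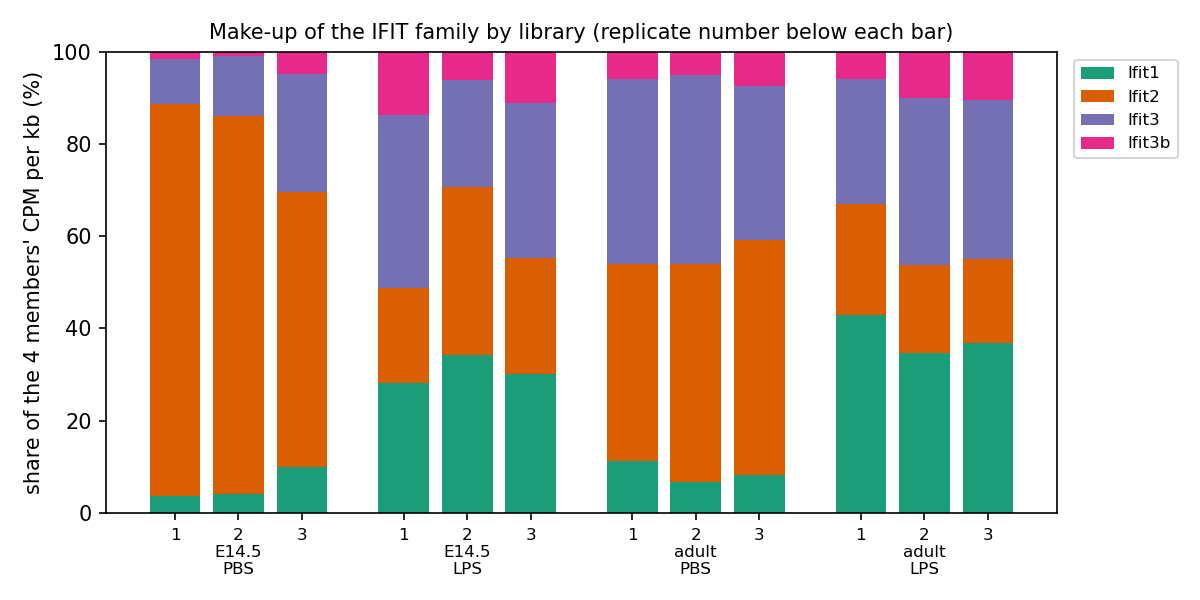
Share of each member in the summed CPM per kb of the 4 members, in percent, for each of the 12 libraries. Ifit2 fills 59.6% to 84.9% of the bars in embryonic PBS and 20.6% to 36.4% in embryonic LPS, where Ifit1 and Ifit3 take the larger part.

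The locus also holds Ifit1bl1 and Ifit1bl2, Ifit1-like genes on the minus strand, listed in the files as Gm14446 and 2010002M12Rik. Ifit1bl1 was at 2.11, 1.07 and 0.987 CPM in embryonic PBS and at 8.69, 40.4 and 66.8 CPM in embryonic LPS, a log2 fold change of 4.80 ± 0.79 (SE, edgeR, adjusted p = 0.0107). The adult log2 fold change of Ifit1bl1 was 2.02 (edgeR, adjusted p = 0.576). Ifit1bl2 was at 1.27, 0.335 and 0.449 CPM in embryonic PBS and at 0.841, 1.55 and 2.84 CPM in embryonic LPS, where the groups overlapped (log2 fold change 1.34, edgeR, adjusted p = 0.494).
The annotated starts of Ifit1 and of an Ifit1bl2 transcript are 146 bases apart and point away from each other, and both promoter windows hold the same 2 matches to the motif printed in capitals for Ifit1. Ifit1 rose with LPS and Ifit1bl2 did not pass the test.

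Genes between the LPS receptor and the IFIT promoters were examined as a list of 20, of which 9 were called with LPS in embryonic stroma, all higher, and 0 in adult stroma (3 with the block). Of all tested genes, 1.93% were called in embryonic and 0.422% in adult stroma (1.62% with the block). The median log2 fold change of the list was 0.98 in embryonic and 0.91 in adult stroma, where the medians over all tested genes were -0.000274 and -0.00749. Ifnb1, the interferon beta ligand, was at 0 counts in all 6 PBS libraries. It reached 1.33, 12.6 and 24.1 CPM in embryonic LPS and 1.11, 0.154 and 0.259 CPM in adult LPS. The mean of the embryonic LPS libraries, 12.7 CPM, was 140-fold the mean 3-count level of the embryonic PBS libraries. The mean of the adult LPS libraries, 0.507 CPM, was 4.26-fold that of the adult PBS libraries. Adult LPS libraries 2 and 3 held only 5 and 6 counts.
Among embryonic LPS libraries Ifnb1, Ifit1 and Ifit2 had the same order, whereas Ifit3 and Ifit3b were lowest in library 2. Among adult LPS libraries, library 1 had the most Ifnb1 and the lowest level of every member.

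The receptor Tlr4 had log2 fold changes of -0.17 and -0.21 in embryonic and adult stroma (edgeR, adjusted p = 0.999 and 1), and the adaptor Ticam2 of -0.16 and 1.09. Irf7, which amplifies interferon production, rose by 5.76 in embryonic stroma (log2 fold change, edgeR, adjusted p = 0.00603) and was at 1.73 in adult stroma (adjusted p = 0.725). Stat2 and Irf9, which act at the response element, rose in embryonic stroma by 4.23 and 2.47 (log2 fold change, edgeR, adjusted p = 0.00822 and 0.0310).
Their adult log2 fold changes were 1.64 and 0.95, and neither passed. With the block these adult changes of Stat2, Irf9 and Irf7 had adjusted p of 1.93e-05, 0.00908 and 0.00468 in edgeR and stayed below the fold threshold. Usp18, a brake on the interferon receptor, rose by 7.10 in embryonic stroma (log2 fold change, edgeR, adjusted p = 0.00227) and was at 2.85 in adult stroma (adjusted p = 0.133), where it passed with the block, at 2.79 (adjusted p = 0.000302).

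Of all tested genes, 1.93% were called in embryonic and 0.422% in adult stroma, and 3.41% and 1.62% with the block. Among 26 other interferon-stimulated genes, 17 were called in embryonic and 3 in adult stroma, all higher, and 23 and 15 with the block. Their median log2 fold change was 4.57 in embryonic stroma and 2.20 in adult stroma, or 2.14 with Oas1g, at 0 in adult PBS, placed at its lower bound. The members' own medians were 8.43 and 2.78. Rsad2 and Cmpk2, neighbours that encode a nucleotide-modifying enzyme and a mitochondrial nucleotide kinase, had the largest embryonic changes, 10.47 and 9.90, and adult ones of 6.68 and 6.46 (edgeR, adult adjusted p = 0.0215 and 0.0291). The smallest were Ifi27l2a at 1.05 and Bst2, which tethers virions, at 1.43.

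Among 5 genes of RNA sensing 3 were called in embryonic stroma and 0 in adult, and with the block 4 and 0. Of all tested genes, 1.93% and 0.422% were called, and 3.41% and 1.62% with the block. Ifih1, a sensor of long double-stranded RNA, rose by 4.88 in embryonic stroma (log2 fold change, edgeR, adjusted p = 0.00306) and Ddx58, the sensor RIG-I, by 2.79 (adjusted p = 0.00650), whereas the adaptor Mavs was at -0.10 (adjusted p = 0.999). Dhx58, a regulator of both sensors, was at 3.86 (adjusted p = 0.0672) and passed with the block, at 4.11 (adjusted p = 6.98e-05). The 17 targets and partners of IFIT proteins are cap methyltransferases, the cap-binding factor, 12 eIF3 subunits and STING. They gave 0 calls in either stage with or without the block, with median log2 fold changes of 0.01 and 0.12. At the shares of all tested genes given above, 0 calls among 17 genes does not set this list apart. The largest embryonic value was 0.80 for Cmtr1, the enzyme that adds the ribose methyl group whose absence IFIT1 detects (edgeR, adjusted p = 0.0422, below the fold threshold), next to Sting1 at 0.77 (adjusted p = 0.361). The smallest were Eif3f at -0.07 and Eif3i at -0.03.

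A list of 9 early NF-kB genes, which LPS induces without interferon, was set beside the members. All 9 were called in embryonic and 6 in adult stroma, and 9 in each with the block. Of all tested genes, 1.93% and 0.422% were called, and 3.41% and 1.62% with the block. With the block 0 of the 9 early genes passed the test of a different response between stages, where 0.844% of all tested genes passed. That count does not show that their responses were alike. In the same test 6 of the 20 signalling genes, 12 of the 26 interferon-stimulated genes, 3 of the 5 RNA sensing genes and 0 of the 17 targets and partners passed. Their median log2 fold change was 4.98 in embryonic and 3.33 in adult stroma. Cxcl1, a neutrophil chemokine, had a log2 fold change of 11.53 in embryonic and 10.20 in adult stroma (edgeR, adjusted p = 1.35e-05 and 1.89e-05). Its relative Cxcl2 reached 188, 126 and 151 CPM in adult LPS from 1, 0 and 3 counts in adult PBS. The smallest embryonic changes were 3.26 for Tnfaip3, an inhibitor of the pathway, and 4.16 for Nfkbiz, a nuclear cofactor of NF-kB. Lists were compared by counts and medians only, and the stages of a list were not tested as a set.

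**Figure D5:**
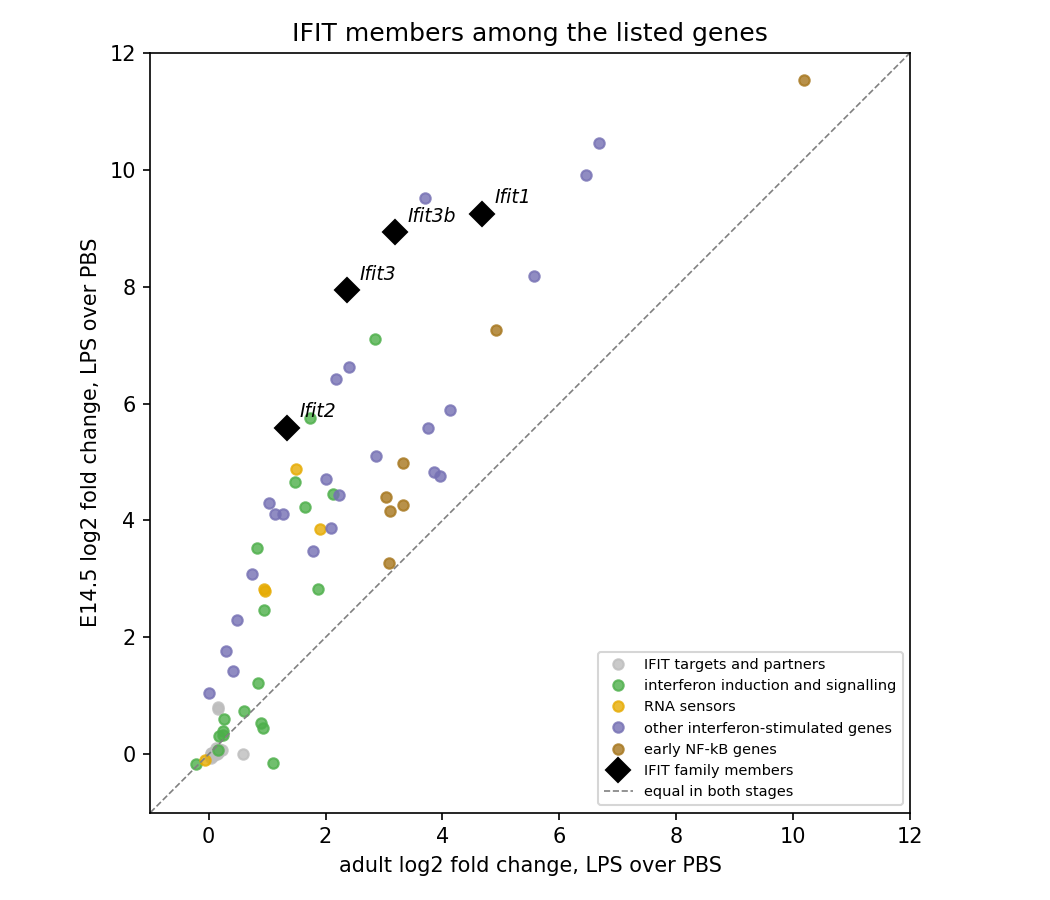
Log2 fold change of LPS over PBS in embryonic (vertical) against adult stroma (horizontal), from edgeR without the block, for the members (black diamonds) and the genes of 5 lists. Ifnb1, Mx1, Oas1g, Epsti1, Cxcl2 and Cxcl5, with at most 3 counts in every PBS library of a stage, are not drawn. The members lie well above the dashed line of equal change, and IFIT targets and partners lie near 0.

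The genes whose pattern was most like that of the family were found by the root mean square difference in log2 CPM, each gene centred on its own mean, from the mean of the 4 members over the 12 libraries. The closest were Usp18 at 0.36, Isg15 at 0.59, Gm4951 at 0.66, Gbp7 at 0.68 and Gbp3 at 0.71, against a median of 3.01 over the other tested genes. Isg15 encodes a ubiquitin-like modifier, and Gbp3 and Gbp7 encode guanylate-binding proteins. Of the members themselves Ifit3 was at 0.33, Ifit3b at 0.48, Ifit1 at 0.86 and Ifit2 at 1.16, so that Ifit1 and Ifit2 were farther from the family mean than these 5 genes.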

How the data were processed

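The study measured mRNA in 12 libraries of cultured stroma, 3 in each of 4 groups by stage and treatment. The authors trimmed the single-end 75-base reads with Trim Galore, mapped them to GRCm38.p6 with STAR allowing at most 1 mismatch, and kept uniquely mapped reads; the annotation behind the counts is not given in the sources used here. The deposited values are raw counts per gene, 1 table per library, with counts for either strand together and for each strand apart, and the strand that holds the gene counts was used. Summary rows that name no gene, 17.4% to 19.9% of the reads in a table, were left out. No 2 libraries agreed within counting noise.

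Genes with CPM above 0.5 in all samples of a group were kept, as in the study's methods. Counts were scaled by TMM and tested with the quasi-likelihood test of edgeR 4.0.16 (R 4.3.3) over all 4 groups, with Benjamini-Hochberg adjustment over all 13038 genes, and called at an adjusted p under 0.05 and, for LPS against PBS, a log2 fold change of 2 or more in either direction. An SE is the fold change divided by the root of F. CPM and log2 values used a prior count of 2 where logged. DESeq2 1.42.0, RLE scaling, other filters and thresholds, both strands, stages fitted alone, the replicate block and leaving out each library or culture were tried. The scripts were tested on simulated data.

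Deviations from group means correlated at 0.710 to 0.784 between same-numbered LPS and PBS libraries in embryonic and at 0.610 to 0.850 in adult stroma. Between other numbers the correlations were -0.749 to 0.0218. Deviations from a group mean cancel out, so these follow in part from the same-number values and are not separate support. From the same-number values the numbers were taken to pair libraries within a stage. The pairing rests on this check, since no source states it. Across stages the same numbers gave -0.306 to -0.0022 and do not pair.

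Transcript lengths, exon counts, strands and exact 75-base windows came from GENCODE vM21, and positions and promoters from RefSeq on GRCm38.p6. Similarity of sequences was computed with Biopython 1.88. All 4 members were named. Of each gene list other than the cell type markers the 2 largest and 2 smallest embryonic fold changes were named, with Ifnb1, Irf7, Irf9, Stat2, the Ifit1-like genes and the 5 genes most like the family. A further gene that the rule names is not reported here. The members and the lists were chosen with earlier results of these data known.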

Additional observations from a re-analysis of the deposited data

Results flagged for a closer look

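The response to LPS differed between the stages for every member in the fit with the replicate block. The embryonic log2 fold change exceeded the adult one by 4.59 for Ifit1, 3.89 for Ifit2, 5.53 for Ifit3 and 5.88 for Ifit3b (edgeR, adjusted p = 0.000897, 0.0155, 0.00119 and 0.00119), against 0.844% of tested genes that passed. Each embryonic pair was above each adult pair, as for 9.66% of tested genes. Ifit2 did not pass when any 1 adult culture was left out (edgeR, adjusted p from 0.0738 to 0.104), and without the block no member passed (adjusted p = 0.968 for each).

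Counts on the strand opposite to the genes, which enter the comparisons only where both strands were counted together, were also higher with LPS. Summed over the 4 members they came to at least 5.48 counts per 1000000 gene counts in embryonic LPS, against at most 0.337 in embryonic PBS, and to at least 1.14 in adult LPS, against at most 0.637 in adult PBS. They were 0.561% to 1.73% of the members' counts in every library, beside 1.14% to 1.98% for all genes.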

How the results depend on the processing

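The 4 calls in embryonic stroma held under RLE scaling, DESeq2, no filter or a CPM filter of 1, counts on either strand, an adjusted p under 0.01, the replicate block and leaving out any library, and gave 0 calls only when the stage was fitted alone without the block (adjusted p from 0.0882 to 0.106, with 4 genes called in all, against 251 in the fit of all groups), where 4 were called with the block. The adult count of 1 became 3 with DESeq2, 3 with the replicate block, 2 with the stage fitted alone, 3 with that and the block, 0 at an adjusted p under 0.01, and 0 to 1 without single libraries; with the block and without single cultures it was 3. The count of interactions was 0 without the block and 4 with the replicate block or DESeq2, and 3 to 4 with the block and without single cultures, an alternative chosen after seeing the data. For stages compared with PBS the count of 0 became 1 with DESeq2. For stages compared with LPS the count of 4 became 1 at an adjusted p under 0.01 and 1 to 4 without single libraries. A block across stages left these at 0 and 4. No direction was reversed for a member, and the causes of these shifts were not tested.

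Over all genes, LPS calls were 251 in embryonic and 55 in adult stroma in the fit without the block, 444 and 211 with it, 379 and 170 with DESeq2, and 103 and 15 at an adjusted p under 0.01. The adult count was 124 with the stage fitted alone and 194 with that and the block, and the embryonic one 384. Interactions numbered 0, 110 with the block and 25 with DESeq2. Stage differences were 532 with PBS and 692 with LPS, 1552 and 1704 with DESeq2, 891 and 1059 with the block across stages, and 102 and 96 at an adjusted p under 0.01. Depth was lowest for Ifit3b, with 4 to 29 counts in the embryonic PBS libraries.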
